A study of Homo sapiens with 8 samples.

Results

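Described here are 10 genes of the NRF2 system in HCT116 cells treated with PZH (Pien Tze Huang, a formula of traditional Chinese medicine): the transcription factors NFE2L2 (which encodes NRF2) and NFE2L1 (NRF1), the NRF2 repressor KEAP1 and its ubiquitin ligase scaffold CUL3, the competing repressor BACH1, the small MAF partners MAFF, MAFG and MAFK, and the target genes OSGIN1 and PIR. They were picked by gene symbol from a table of 35394 rows, and all 10 were found and tested. These genes and the lists below were chosen with earlier results of these data known, so their shares of calls are description only. HCT116 is a human colorectal cancer line, labelled here as epithelial with a ras mutation. The 4 PZH samples were treated for 24 h, and the 4 control samples received DMSO, the solvent, for a time the labels do not give. The labels state no dose of PZH, and all samples are of 1 cell line.

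NRF2 is a transcription factor of the cap'n'collar (CNC) family that turns on antioxidant, iron and detoxification genes. In unstressed cells KEAP1 holds NRF2 and presents it to the CUL3 ubiquitin ligase, so NRF2 is made and destroyed continually. Electrophiles and oxidants modify KEAP1, and NRF2 then accumulates, largely without any need for a change of its own mRNA. On DNA it binds antioxidant response elements as a heterodimer with a small MAF protein, and BACH1 occupies the same elements with the same partners until heme or oxidation removes it. RNA-seq reads the mRNA of these genes and not the protein, its stability or its place in the cell.

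RefSeq promoter windows (GRCh38.p14) were on hand for 9 of the 10 genes, 16 windows in all. The 250 bases before each start were searched on both strands for 4 motifs. These bases can overlap annotated untranslated regions of transcripts. In the windows with a match such overlap covered 18 bases for OSGIN1, 112 for MAFF, 125 for KEAP1 and 51 for BACH1. The antioxidant response element core TGACNNNGC was found in 2 of the 16 windows (12.5%), against 10.91% of all 35116 windows. The AP-1 element TGANTCA, a site of FOS and JUN dimers whose letters can overlap an antioxidant response element, was in 2 (12.5%, against 6.573%). The cAMP response element TGACGTCA was in 1 (6.25%, against 1.646%), and the ATF4 element core TGATGNAA in 0 (against 3.144%). A match is a description of letters and not a binding site, and a lack of match says only that these letters are not in this window. All matches found are printed. They lie in windows of OSGIN1, MAFF, KEAP1 and BACH1, while the windows of NFE2L2, NFE2L1, CUL3, MAFG and PIR held no match. A link between matches and changes was not tested. Letters run 5′ to 3′ on the gene's strand, and capitals mark the match. The OSGIN1 stretch is chr16:83952990-83953221 on the plus strand, with the AP-1 match 97 to 91 bases before the start.
OSGIN1: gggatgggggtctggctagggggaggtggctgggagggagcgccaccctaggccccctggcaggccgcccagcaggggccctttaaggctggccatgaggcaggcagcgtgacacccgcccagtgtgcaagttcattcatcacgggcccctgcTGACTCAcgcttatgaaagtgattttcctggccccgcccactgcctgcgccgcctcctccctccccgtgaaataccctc

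The first MAFF stretch is chr22:38201744-38201881 on the plus strand, with the antioxidant response element core read on the other strand, 122 to 114 bases before the start. The second is chr22:38201929-38201958, with the cAMP response element 54 to 47 bases before the start.
MAFF, antioxidant response element core: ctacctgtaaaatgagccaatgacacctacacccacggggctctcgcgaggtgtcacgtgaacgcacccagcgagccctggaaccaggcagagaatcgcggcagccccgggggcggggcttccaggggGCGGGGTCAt
MAFF, cAMP response element: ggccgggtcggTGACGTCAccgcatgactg

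One KEAP1 window held 2 antioxidant response element cores, at chr19:10502806-10502835 and chr19:10502783-10502812 on the minus strand, 54 to 46 and 31 to 23 bases before that start. The second core is read on the other strand. One BACH1 window held an AP-1 element, at chr21:29298863-29298892 on the plus strand, 48 to 42 bases before that start.
KEAP1, first match: acttttattgTGACACGGCgggcgcccggc
KEAP1, second match: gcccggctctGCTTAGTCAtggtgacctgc
BACH1: cgcggaaggagTGAGTCAcctgaccgctgc

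Levels are in CPM, a gene's counts per fixed total of its library, scaled by TMM, a method that sets libraries to a common level over most genes. Fold changes are PZH over DMSO with a standard error, and calls use the quasi-likelihood test of edgeR, with p-values adjusted over 15006 genes by Benjamini-Hochberg and a threshold of 0.05. Total counts ran from 19288836 to 19917571 in DMSO and from 18144117 to 18868057 in PZH, and 3 counts correspond to 0.151 to 0.165 CPM. The 10 most abundant genes took 6.22% to 6.43% of counts in DMSO and 10.5% to 11.4% in PZH. Leaving such genes out of totals and tests kept 8 of the 10 genes of the NRF2 system called higher and 1 lower. Epithelial markers summed to 3846 to 3913 CPM in DMSO and 2382 to 2707 CPM in PZH, with 6 of 6 at 1 CPM or more in every library. Fibroblast markers summed to 11.7 to 14.3 and 17.5 to 21.3 CPM, with COL1A2 at 0 and 1 of 5 at 1 CPM or more in every library. Endothelial, immune and erythroid markers each summed to at most 1.76 CPM in any library. The part of the epithelial and fibroblast marker differences in the results was not tested. CPM is a share of the library, so a change in the RNA content of the cells cannot be told apart from a change of the rest of the transcriptome.

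Of the 10 genes, 8 were called higher in PZH, against 39.3% of all genes tested. KEAP1 alone was called lower, against 40.9% of all genes, and CUL3 was not called. A rise of at least 2-fold was seen for 6 of the 10, against 15.8% of all genes. The groups did not overlap for 9 of the 10, against 75% of all genes. The median log2 fold change was 1.35 over the 10 genes and -0.02 over all genes tested. Without scaling factors, 4476 genes were called higher and 7670 lower (36.9% higher among calls, against 49% with TMM), and the median log2 fold change of all genes moved by -0.26.

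**Figure D1:**
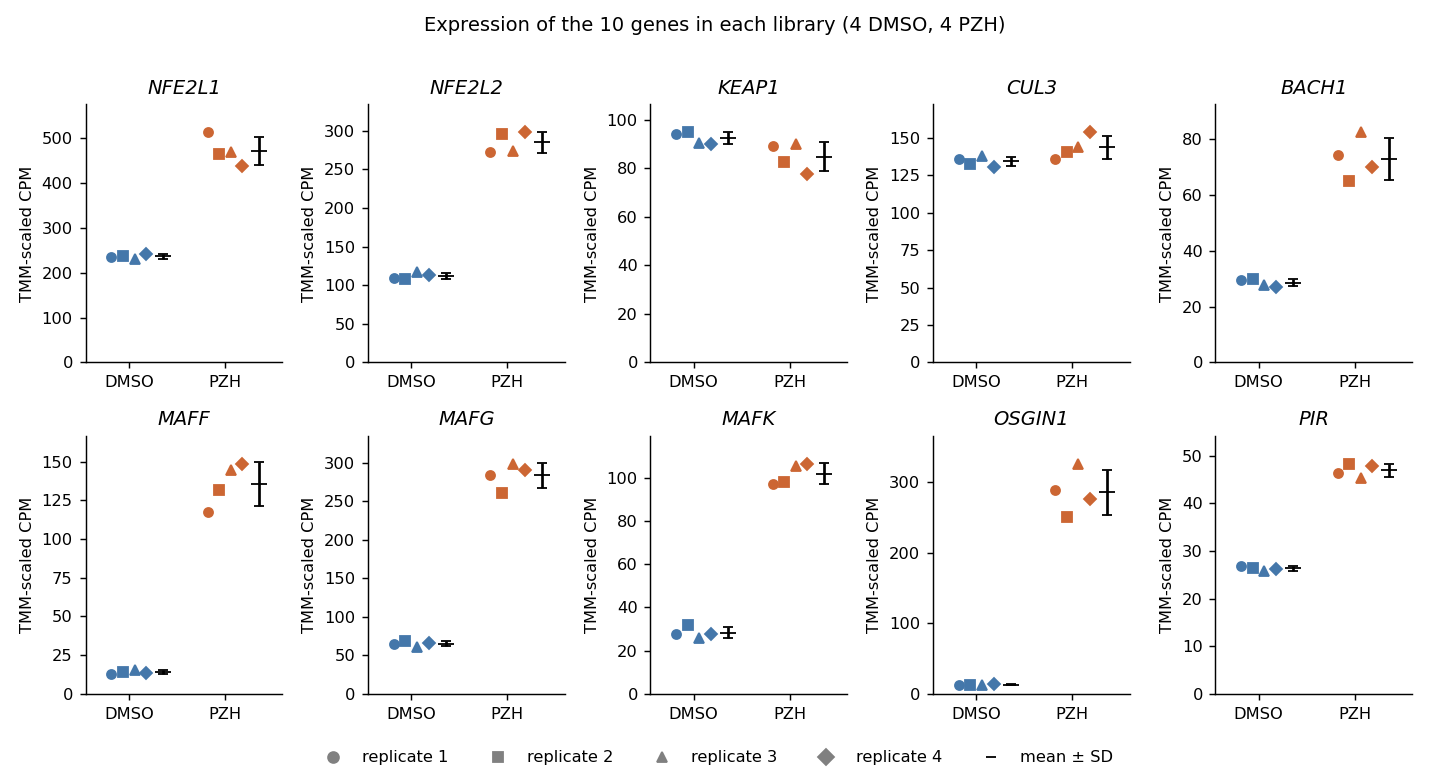
TMM-scaled CPM of each of the 10 genes in 4 DMSO and 4 PZH libraries, 1 panel per gene with its own axis from 0; symbols are replicate numbers and bars are mean ± SD. The groups lie far apart for 8 genes, nearly touch for KEAP1 (90.11 against 90.07 CPM) and overlap for CUL3.

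NFE2L2 (chr2:177227595-177392697, minus strand, GRCh38 in GENCODE v29) stood at 109, 108, 117 and 113 CPM in DMSO replicates 1 to 4. In PZH it stood at 273, 296, 274 and 299 CPM. Every PZH library lay above every DMSO library. The mean rose from 112 ± 3.82 to 285 ± 13.6 CPM, or 2.55-fold (SD, n = 4 per group; log2 fold change 1.35 ± 0.047, adjusted p = 2.69e-17 in edgeR's quasi-likelihood test).

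NFE2L1 (chr17:48048329-48061487, plus strand) encodes NRF1, an ER-anchored relative of NRF2 that drives proteasome genes after cleavage. Its DMSO libraries held 236, 237, 230.3 and 243 CPM. Its PZH libraries held 514, 465, 470.4 and 439 CPM. With no overlap between groups, the mean rose from 236.5 ± 5.23 to 472 ± 31.3 CPM, or 2.0-fold (log2 fold change 1.00 ± 0.051, adjusted p = 2.42e-14 by edgeR). The fold lay just under 2, so NFE2L1 is outside the 6 genes counted above.

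KEAP1 (chr19:10486120-10503741, minus strand), the sensor and adaptor that presents NRF2 for ubiquitination, held 94.1, 95, 90.6 and 90.1 CPM in DMSO. In PZH it held 89.4, 82.6, 90.1 and 77.5 CPM. The groups were separated only by the gap between 90.11 CPM in DMSO replicate 4 and 90.07 CPM in PZH replicate 3. KEAP1 was 1.09-fold lower, from 92.5 ± 2.45 to 84.9 ± 5.94 CPM (log2 fold change -0.12 ± 0.051, 95% interval -0.23 to -0.016, adjusted p = 0.0327 by edgeR). The call did not hold with RLE factors (adjusted p = 0.0799), in DESeq2 (adjusted p = 0.101) or without any of 4 single libraries (DMSO replicate 1, DMSO replicate 2, PZH replicate 2 or PZH replicate 4; adjusted p = 0.0650 to 0.170). With the GC trend of each library removed the direction turned (log2 fold change 0.065, adjusted p = 0.254).

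CUL3 (chr2:224470150-224585397, minus strand), the scaffold of the ligase that KEAP1 serves, held 136, 132, 138 and 131 CPM in DMSO. PZH libraries held 136, 140.4, 144 and 154 CPM. PZH replicate 1 lay inside the DMSO range and the other PZH libraries lay above it. Means were 134 ± 3.23 and 144 ± 7.54 CPM, which did not pass the test (log2 fold change 0.097 ± 0.046, adjusted p = 0.0594 by edgeR). The 95% interval of the log2 fold change ran from 0.00084 to 0.19, which leaves out a change of 2-fold in either direction. Without scaling factors CUL3 was called lower (log2 fold change -0.16, adjusted p = 0.00181). It was called higher with RLE factors (0.12, adjusted p = 0.0275), in DESeq2 (0.12, adjusted p = 0.0268), without PZH replicate 1 (0.14, adjusted p = 0.00723) and without PZH replicate 2 (0.11, adjusted p = 0.0305).

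BACH1 (chr21:29194071-29630751, plus strand), a heme-binding repressor of HMOX1 and other NRF2 targets, held 29.7, 30.01, 27.8 and 27.2 CPM in DMSO. In the PZH libraries it held 74.3, 64.9, 82.6 and 70.1 CPM, with no overlap. The mean rose from 28.7 ± 1.41 to 73.0 ± 7.46 CPM, or 2.55-fold (log2 fold change 1.35 ± 0.067, adjusted p = 1.67e-14 by edgeR). The repressor and NFE2L2 had the same log2 fold change at this rounding.

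The small MAF proteins lack an activation domain of their own and lend DNA contact to NRF2, NRF1 and BACH1 alike. MAFF (chr22:38200767-38216511, plus strand) held 12.7, 13.9, 15.6 and 13.5 CPM in DMSO. Its PZH libraries held 117, 132, 144 and 149 CPM. All 4 PZH libraries were far above DMSO, and the mean rose from 13.9 ± 1.21 to 136 ± 14.1 CPM, or 9.74-fold (log2 fold change 3.28 ± 0.076, adjusted p = 1.65e-20 by edgeR).

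MAFG (chr17:81918270-81927714, minus strand), the most counted small MAF in both groups, held 64.3, 68.8, 61.0 and 65.6 CPM in DMSO. In PZH it held 284, 261, 299 and 291 CPM, again without overlap. Its mean rose from 64.9 ± 3.25 to 284 ± 16.4 CPM, or 4.37-fold (log2 fold change 2.13 ± 0.053, adjusted p = 5.07e-20 by edgeR).

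MAFK (chr7:1530714-1543043, plus strand) held 27.8, 32.0, 26.0 and 27.7 CPM in DMSO. Its PZH values were 97.3, 98.0, 105 and 107 CPM, all above the DMSO values. The mean rose from 28.4 ± 2.58 to 102 ± 4.83 CPM, or 3.59-fold (log2 fold change 1.84 ± 0.061, adjusted p = 8.85e-18 by edgeR).

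OSGIN1 (chr16:83948282-83966332, plus strand), an oxidative stress-induced growth inhibitor and known NRF2 target, moved most. It held 13.3, 13.3, 12.2 and 14.0 CPM in DMSO. In PZH it held 289, 250.1, 326 and 277 CPM. The lowest PZH library lay many times above the highest DMSO library, and the mean rose from 13.2 ± 0.740 to 286 ± 31.7 CPM, or 21.6-fold (log2 fold change 4.43 ± 0.076, adjusted p = 1.42e-22 by edgeR). Its log2 fold change ranked 82 among 15006 genes, ahead of MAFF at 205 and MAFG at 599.

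PIR (chrX:15384799-15493564, minus strand) encodes pirin, an iron-binding nuclear protein and a known NRF2 target. DMSO libraries held 26.9, 26.4, 25.7 and 26.3 CPM, and PZH libraries 46.3, 48.3, 45.4 and 47.8 CPM. The groups were tight and did not overlap. The mean rose from 26.3 ± 0.486 to 46.9 ± 1.35 CPM, or 1.78-fold (log2 fold change 0.83 ± 0.057, adjusted p = 5.35e-12 by edgeR). The rises of the 2 target genes thus differed widely in size.

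**Figure D2:**
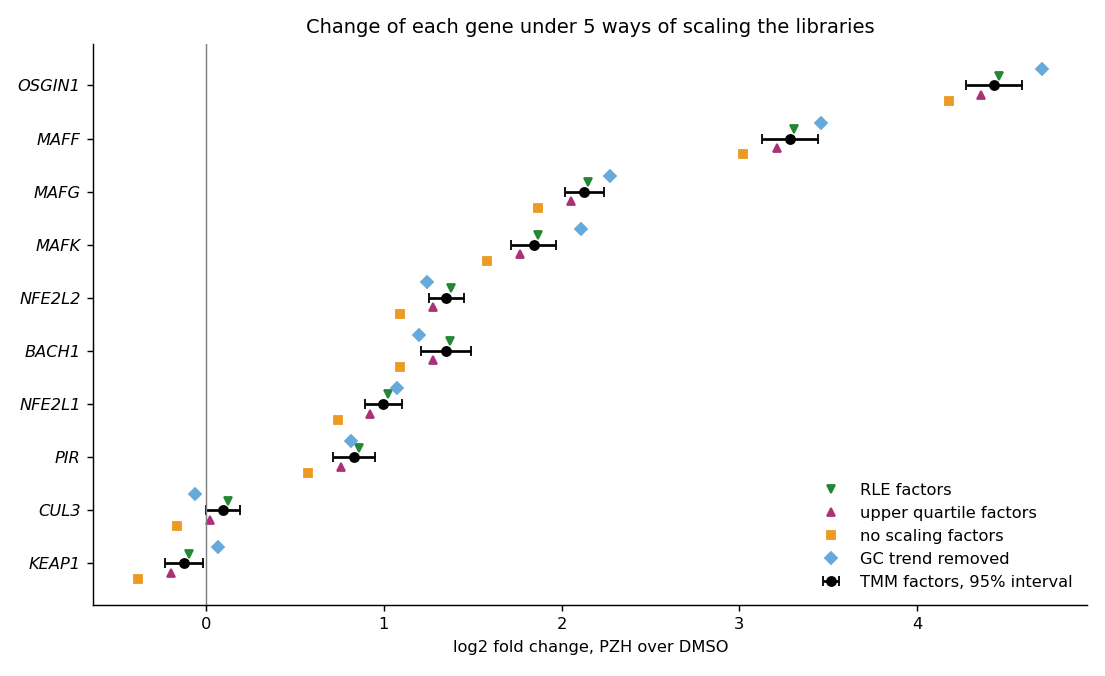
Log2 fold change of each gene, PZH over DMSO, under 5 scalings; black points and bars are TMM with the 95% interval, coloured symbols are other scalings. The 8 called genes stay right of 0 under each scaling drawn, while KEAP1 and CUL3 fall on either side of it.

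The 8 rises kept their direction and their call under all 20 alternative settings. The lowest log2 fold change over them was 0.74 for NFE2L1, 1.09 for NFE2L2, 1.09 for BACH1, 3.02 for MAFF, 1.87 for MAFG, 1.58 for MAFK, 4.18 for OSGIN1 and 0.57 for PIR.

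Ratios of 2 genes within a library do not depend on a scaling factor per library, though they do depend on corrections that differ between genes, such as one for GC. Of these ratios, 7 were compared by an exact two-sided permutation test over 70 assignments, where the smallest p is 0.0286. NFE2L2 counts were 1.16, 1.14, 1.29 and 1.255 times those of KEAP1 in DMSO and 3.06, 3.58, 3.04 and 3.85 times in PZH. The activator gained on its repressor in every PZH library, with a log2 change of 1.48 ± 0.095 (exact permutation p = 0.0286, adjusted p = 0.0333 over the 7 ratios). NFE2L2 over BACH1 behaved otherwise, at 3.69, 3.60, 4.199 and 4.16 in DMSO and 3.68, 4.55, 3.32 and 4.26 in PZH. Here the groups overlapped widely, and the log2 change was 0.0066 ± 0.118 (exact permutation p = 0.943, adjusted p = 0.943). NFE2L2 over NFE2L1 rose from 0.473 ± 0.023 to 0.607 ± 0.065, and CUL3 over KEAP1 from 1.45 ± 0.052 to 1.70 ± 0.20 (SD, n = 4 per group; exact permutation p = 0.0286 and adjusted p = 0.0333 for each). The direction of CUL3 over KEAP1 depended on the GC correction: its log2 change was 0.22 in the counts as deposited and -0.13 with the GC trend of each library removed, a value with no test. With that trend removed the log2 change was 1.18 for NFE2L2 over KEAP1, and 0.17 in place of 0.36 for NFE2L2 over NFE2L1.

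**Figure D3:**
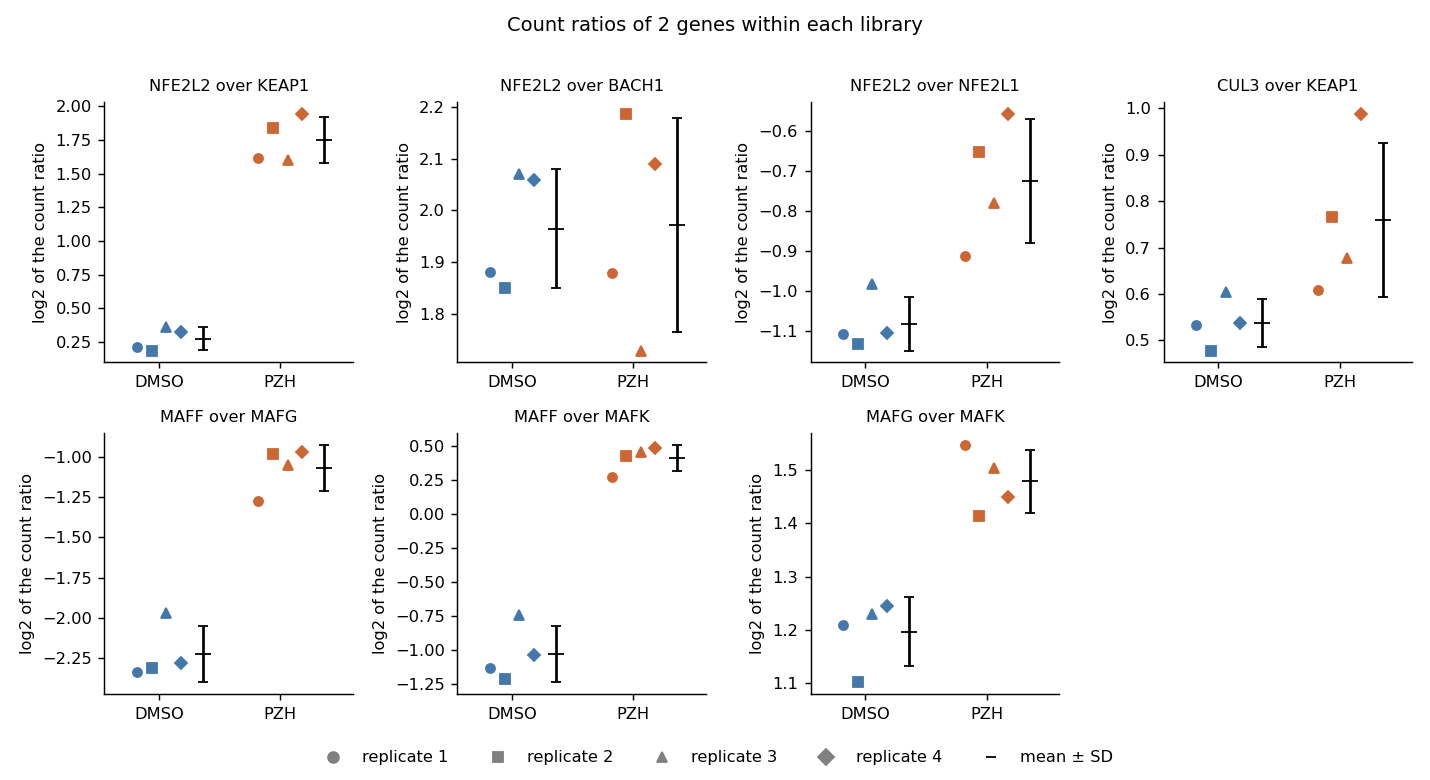
Log2 of the count ratio of 2 genes within each of 4 DMSO and 4 PZH libraries, for 7 ratios, with mean ± SD; each panel has its own axis, which does not start at 0. The groups overlap only for NFE2L2 over BACH1.

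Among the small MAFs, MAFF gained most. MAFF over MAFG rose from 0.215 ± 0.027 to 0.478 ± 0.045, a log2 change of 1.16 ± 0.111. MAFF over MAFK rose from 0.494 ± 0.074 to 1.33 ± 0.085, so that MAFF passed MAFK in every PZH library. MAFG over MAFK rose less, from 2.29 ± 0.1005 to 2.79 ± 0.114, a log2 change of 0.28 that was 0.16 with the GC trend removed. Each of these 3 had an exact permutation p of 0.0286 and an adjusted p of 0.0333, with no overlap (n = 4 per group). As shares of small MAF counts, MAFF went from 13.0 ± 1.48% to 26.0 ± 1.67%, MAFG from 60.6 ± 0.985% to 54.5 ± 1.76% and MAFK from 26.4 ± 1.11% to 19.5 ± 0.318%. Shares of 1 sum are tied to each other, and the sum itself went from 107 ± 5.30 to 521 ± 30.7 CPM.

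**Figure D4:**
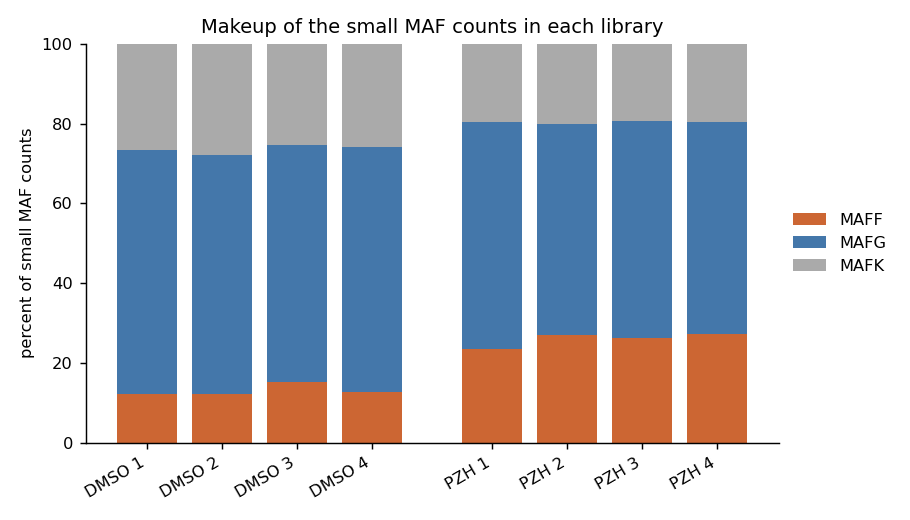
Percent of small MAF counts from MAFF, MAFG and MAFK in each of 4 DMSO and 4 PZH libraries, stacked to 100%. The MAFF share lies at 12.1% to 15.2% in DMSO and 23.5% to 27.2% in PZH.

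Per kilobase of merged exons in GENCODE v29, the level order in DMSO was led by NFE2L1 at 44.2 CPM per kb, KEAP1 at 29.3 and NFE2L2 at 24.7. CUL3 at 17.8 and PIR at 17.1 CPM per kb followed, and their libraries overlapped. MAFG stood at 12.4 and MAFK at 8.43 CPM per kb. MAFF at 5.05, BACH1 at 4.90 and OSGIN1 at 4.85 CPM per kb came last, and neighbours in this order overlapped. In PZH, OSGIN1 came first at 105 CPM per kb, overlapping with NFE2L1 at 88.3. NFE2L2 stood at 63.0, MAFG at 54.3 and MAFF at 49.2 CPM per kb, the last pair overlapping. PIR at 30.5 and MAFK at 30.2 CPM per kb also overlapped, and KEAP1 at 26.9, CUL3 at 19.1 and BACH1 at 12.5 closed the order. By merged exon length KEAP1 went from the second place to the eighth, and OSGIN1 from among the overlapping last 3 to a first place shared in range with NFE2L1. Per kilobase of the longest coding transcript, the mean of BACH1 and not OSGIN1 was last in DMSO (4.97 against 5.52 CPM per kb). NFE2L2 stood before KEAP1 in DMSO (39.2 against 31.3 CPM per kb). In PZH the mean of NFE2L2 stood just before NFE2L1 (100 against 98.9 CPM per kb). Libraries overlapped for BACH1 and OSGIN1 in DMSO and for NFE2L2 and NFE2L1 in PZH.

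The annotation places other genes over some of these exons, and the sources used here do not say whether counting used strand. TMEM184A shares 809 exon bases with MAFK on the opposite strand and went from 1234 to 826 summed counts, while MAFK went from 2427 to 6889. AGPS shares 54 exon bases with NFE2L2 on the opposite strand and went from 10106 to 5199 counts. AC019080.1 shares 489 exon bases with NFE2L2 on the same strand and went from 212 to 304 counts, against 9563 to 19320 for NFE2L2. AC145207.8 shares 224 exon bases with MAFG on the opposite strand and held 24 and 73 counts, against 5552 and 19205. AC009119.2 shares 264 exon bases with OSGIN1 on the same strand and held 11 and 15 counts, against 1129 and 19343. On the opposite strand, AC073052.2 shares 598 exon bases with CUL3 and held 1 and 0 counts. AC079305.1 shares 190 with NFE2L2, also on the opposite strand, and held 12 and 10. A row named MAFG-AS1 fell as MAFG rose, from 7.10 ± 0.857 to 3.20 ± 0.939 CPM (n = 4 per group; log2 fold change -1.14 ± 0.17, adjusted p = 2.96e-06 by edgeR). RefSeq uses that name for 1 transcript and as an older name of another, and which of them the row holds is not settled here. BACH1-AS1, BACH1-IT1, BACH1-IT2 and BACH1-IT3 held 1, 14, 1 and 2 summed counts in DMSO and 10, 32, 20 and 0 in PZH.

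The other genes of the system were grouped in lists by role, and each list's calls are read against the same 39.3% higher and 40.9% lower over all genes. Those shares are for TMM. List counts without scaling factors are read against 4476 higher and 7670 lower of 15006 genes, with a median log2 fold change of -0.28. Of 7 CNC and large MAF relatives 5 were tested, with 0 called higher and 2 lower (0 and 2 also at an unadjusted p under 0.05, in DESeq2 and in limma-voom) and a median log2 fold change of 0.086. NFE2L3, the CNC factor NRF3, fell from 56.9 ± 2.35 to 21.3 ± 1.39 CPM, or 2.67-fold (log2 fold change -1.42 ± 0.063, adjusted p = 1.71e-15 by edgeR), against the rises of NFE2L1 and NFE2L2. MAF held 2 summed counts in DMSO and 7 in PZH and was not tested.

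Of 17 genes of cullin-RING assembly and other NRF2 ligases, 6 were called higher and 8 lower, with a median of -0.089, and without scaling factors 2 and 11. SYVN1, an ER ligase that also targets NRF2, rose 3.85-fold from 38.5 ± 0.922 to 148 ± 14.97 CPM (adjusted p = 4.84e-18 by edgeR). BTRC, the adaptor of a KEAP1-independent NRF2 ligase, rose 1.42-fold from 70.3 ± 1.19 to 99.99 ± 4.27 CPM (adjusted p = 1.02e-09). The signalosome subunit GPS1 fell 1.88-fold from 133 ± 4.48 to 70.5 ± 3.61 CPM (adjusted p = 5.13e-14). NAE1, part of the enzyme that activates NEDD8, fell 1.79-fold from 91.1 ± 4.37 to 50.8 ± 5.18 CPM (adjusted p = 1.65e-11).

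Of 11 proteins that bind KEAP1 or NRF2, 3 were called higher and 7 lower, and the median log2 fold change was -0.89. SESN2, a sestrin that promotes KEAP1 degradation, rose 28.3-fold from 17.3 ± 0.553 to 491 ± 42.0 CPM (adjusted p = 7.30e-24 by edgeR). CDKN1A, the CDK inhibitor p21, rose 7.09-fold from 163 ± 1.57 to 1157 ± 54.6 CPM (adjusted p = 4.20e-22). Among those that fell, MCM3 is a replicative helicase subunit and BRCA1 a DNA repair protein. MCM3 fell 8.39-fold from 348 ± 12.9 to 41.4 ± 3.77 CPM (adjusted p = 6.91e-22), and BRCA1 2.37-fold from 72.9 ± 2.001 to 30.8 ± 3.03 CPM (adjusted p = 1.56e-14).

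Of 9 coactivators and repressors of NRF2, 4 were called higher and 3 lower, with a median of -0.077 (4 and 5 without scaling factors). The coactivator NCOA3 rose 2.87-fold from 58.7 ± 1.596 to 169 ± 7.07 CPM (adjusted p = 2.49e-18 by edgeR). The nuclear receptor RXRA fell 1.81-fold from 81.0 ± 1.56 to 44.6 ± 2.28 CPM (adjusted p = 3.97e-13). SMARCA4, the ATPase of a chromatin remodeller, fell 1.86-fold from 139 ± 5.68 to 75.0 ± 6.91 CPM (adjusted p = 1.34e-12).

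Genes that process NRF1 were called higher in 8 and lower in 2 of 10, with a median of 0.63. SEL1L, the partner of SYVN1 in ER-associated degradation, rose 3.81-fold from 93.7 ± 2.18 to 357 ± 40.6 CPM (adjusted p = 9.66e-18 by edgeR), close in size to SYVN1, which is on this list too. DDI2, the protease that cleaves NRF1, fell 1.85-fold from 74.3 ± 1.17 to 40.1 ± 2.59 CPM (adjusted p = 5.82e-13). HCFC1, a cofactor of the enzyme OGT, fell 1.55-fold from 140.5 ± 3.83 to 90.6 ± 2.25 CPM (adjusted p = 7.43e-12).

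Of 32 proteasome genes, known NRF1 targets, 19 were called higher and 8 lower, with a median of 0.16 and no log2 fold change above 0.92. Without scaling factors 11 were called higher and 16 lower, and the median turned to -0.10, against -0.28 over all genes in that setting. PSMC4 rose 1.89-fold from 118 ± 1.20 to 223 ± 23.3 CPM (adjusted p = 1.23e-12 by edgeR) and PSMD14 1.53-fold from 183 ± 2.28 to 280.2 ± 7.15 CPM (adjusted p = 8.66e-12). PSMD1 fell 1.85-fold from 279 ± 6.68 to 151 ± 7.90 CPM (adjusted p = 4.45e-14) and PSMD2 1.48-fold from 591 ± 10.5 to 399 ± 20.9 CPM (adjusted p = 2.99e-10). These 4 kept their direction without scaling factors.

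Of 15 genes of BACH1 turnover and heme metabolism, 6 were called higher and 7 lower, with a median of -0.0096 (5 and 9 without scaling factors). HMOX1, which opens the heme ring, rose 22.6-fold from 21.3 ± 2.31 to 483 ± 10.7 CPM (adjusted p = 9.62e-24 by edgeR), and the biliverdin reductase BLVRB 3.80-fold from 44.1 ± 2.56 to 168 ± 12.7 CPM (adjusted p = 1.43e-18). The other biliverdin reductase, BLVRA, stood at 27.9 ± 0.531 and 27.7 ± 2.02 CPM and was not called (adjusted p = 0.90). Enzymes of heme synthesis went both ways. CPOX fell 6.96-fold from 594 ± 10.3 to 85.3 ± 6.77 CPM (adjusted p = 1.33e-21), and UROS 4.13-fold from 40.6 ± 1.11 to 9.79 ± 1.69 CPM (adjusted p = 1.65e-15), and ALAD, UROD and PPOX were also called lower. ALAS1, the first enzyme of the pathway, rose 2.81-fold from 83.2 ± 4.59 to 233 ± 8.97 CPM (adjusted p = 9.12e-18), and FECH, the last, 1.276-fold from 59.3 ± 2.60 to 75.7 ± 3.79 CPM (adjusted p = 1.96e-06). BLVRA, ALAD, UROD, PPOX, ALAS1 and FECH were named after their values were seen.

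Of 35 NRF2 targets beside OSGIN1 and PIR, 32 were tested, 23 were called higher and 8 lower, and the median log2 fold change was 1.72. TXNRD1, which reduces thioredoxin, rose 7.33-fold from 427 ± 5.67 to 3130 ± 86.8 CPM (adjusted p = 4.20e-22 by edgeR). OSGIN1 rose about as far as HMOX1, while PIR rose less than most called targets. The transporter ABCC2 fell 1.92-fold from 151 ± 6.15 to 78.6 ± 3.34 CPM (adjusted p = 2.24e-14). TALDO1, an enzyme of the pentose phosphate pathway, fell 1.64-fold from 166 ± 1.84 to 101 ± 7.55 CPM (adjusted p = 9.46e-12).

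**Figure D5:**
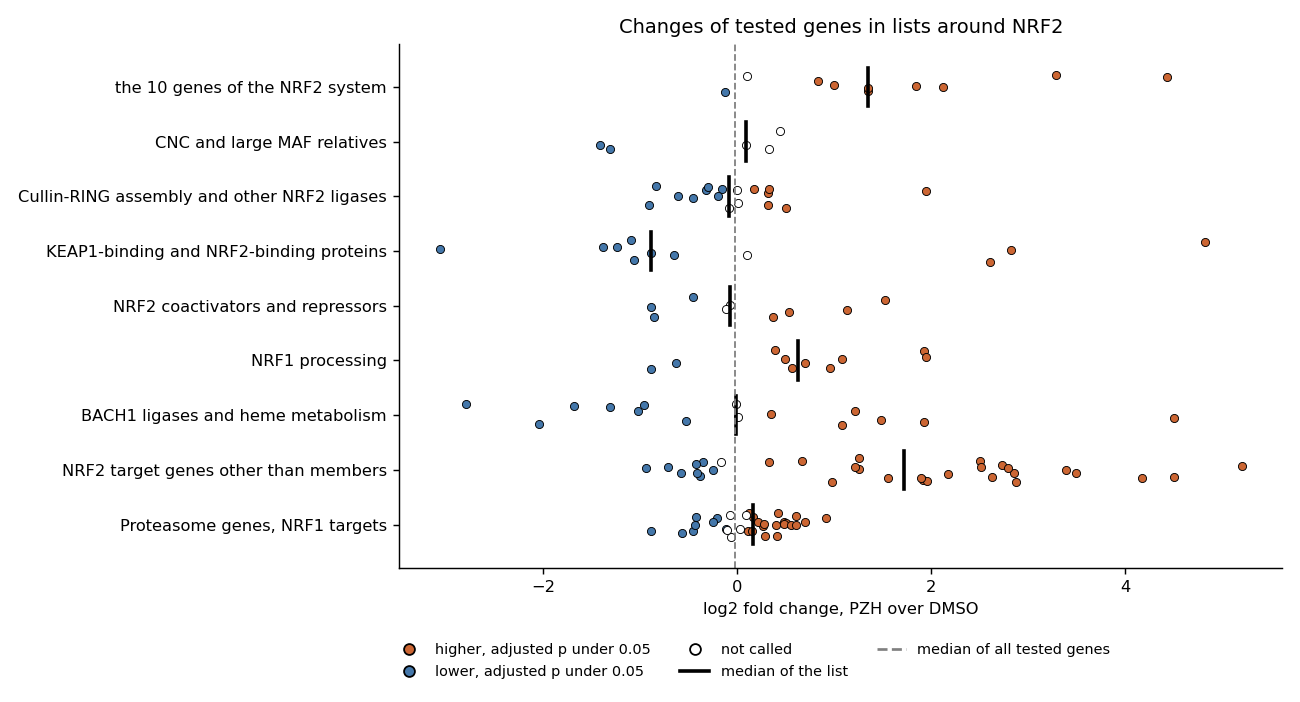
Log2 fold change (PZH over DMSO) of each tested gene in the 10 genes and 8 lists; orange is called higher, blue called lower, open circles not called, black bars list medians and the dashed line the median of all genes tested. The NRF2 targets spread from -0.94 to 5.21 and the proteasome genes from -0.89 to 0.92.

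The genes whose 8 library levels ran closest to NFE2L2, each relative to its own DMSO mean, were IRF5, HLA-B and JUND. They were ranked among 11005 genes whose mean log2 CPM reached 2. Symbols that matched a name pattern meant for clone, LOC, LINC and date names were left out. The root mean square difference in log2 level was 0.029, 0.040 and 0.041. Among the other 9 genes of the system BACH1 was closest at 0.145, then NFE2L1 at 0.272, and OSGIN1 was farthest at 2.18. With 2 groups this measure mostly reads the size of the group difference.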

How the data were processed

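Sequencing of poly(A) RNA covered 8 HCT116 samples, and the authors deposited whole-number counts per gene symbol, unnormalized. Tools named by the submitters' processing notes are HISAT2 2.1.0, StringTie 1.3.3b, DESeq 1.28.0 and FastQC 0.11.5. The annotation, genome build and strandedness of counting were not given in the sources used here. Since the labels do not say what a replicate is, p-values measure the spread between these samples, which may be technical. In every pair of replicates counts differed by more than counting noise. Biological variation (edgeR's coefficient) came to 3.58% in DMSO and 8.02% in PZH. Spreadsheet dates replaced 25 gene names (0.178% to 0.220% of counts), and 4655 rows had no count.

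Genes passed edgeR's filterByExpr (minimum count 10, minimum total 15). The fit used TMM and glmQLFit with group only, in edgeR 4.0.16 on R 4.3.3. Standard errors are the absolute log2 fold change over the square root of F. Alternatives used DESeq2 1.42.0 and limma 3.58.1. The GC trend was a loess with span 0.3, the single span run, over 14917 genes. Ratios were tested with scipy 1.17.1. Table symbols matched 1 GENCODE v29 gene in 34998 of 35392 cases, and lengths and loci come from that annotation. The fitting script was tested on simulated counts. The first criterion for recovery of changed genes, set over all genes, was not met, with low-count genes often missed. The criterion was then limited to genes at 1 CPM or more and was met narrowly, with the script unchanged.

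The 10 genes and the lists were chosen with earlier results of these data known. Named list genes are the 2 called members with the smallest p in each direction at a mean log2 CPM of at least 2; 1 of them is not reported here. SYVN1, HMOX1 and SLC48A1 are each on 2 lists. Intervals and floors cover counting error only where they come from counts, since PCR copies are not independent molecules.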

Additional observations from a re-analysis of the deposited data

Results flagged for a closer look

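In groups of 4 libraries, 7 of 88 had a library farther from the others than Dixon's 95% critical value allows, and chance flags about 1 in 20. None was the level of 1 of the 10 genes. One was a ratio of 2 of them: MAFF over MAFG was 0.256 in DMSO replicate 3, against 0.198 to 0.206 in the other DMSO libraries, and still below every PZH library. In PZH, HMOX1 was high in replicate 4 at 499 CPM (others 477 to 479). In PZH replicate 1, BRCA1 was high at 35.3 CPM (others 29.1 to 29.4), as was NAE1 at 58.4 CPM (others 47.1 to 49.0). ABCC2 was low in PZH replicate 3 at 73.7 CPM (others 79.8 to 80.9). In DMSO, BLVRB was low in replicate 1 at 40.3 CPM (others 45.0 to 45.6) and UROS high in replicate 4 at 42.2 CPM (others 39.9 to 40.1).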

How the results depend on the processing

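Of 210 values of the 10 genes across settings, 194 kept direction and call; the other 16 were KEAP1 and CUL3. The count of genes called lower, 1, was 0 with RLE factors, DESeq2, the GC trend removed, the GC trend removed with the replicate block, or an adjusted p of 0.01, and 2 without scaling factors. Leaving out each library gave 0 to 1 called lower, 8 to 9 called higher, and 5835 to 5991 higher and 6026 to 6217 lower over all genes. With the GC trend removed, KEAP1 turned to 0.065 and CUL3 to -0.061 on the log2 scale, and with the block added to 0.063 and -0.063. Without scaling factors CUL3 turned to -0.16. The causes were not tested. NFE2L2 over BACH1, not called, changed by -0.065 to 0.087 on leaving out each library. The other 6 ratios kept their direction there, but 4 libraries against 3 cannot go below an exact p of 0.0571. CUL3 over KEAP1 turned to -0.13 with the GC trend removed, and the other 6 ratios kept their direction. All 565 values of MAFG-AS1 and of the list genes named by smallest p kept direction and call. These values do not cover BLVRA, ALAD, UROD, PPOX, ALAS1 and FECH. With TMM left out, FECH lost its call (0.093 on the log2 scale, edgeR adjusted p = 0.134). BLVRA, not called with TMM, was then called lower (-0.27, edgeR adjusted p = 0.00162). ALAD, UROD, PPOX and ALAS1 kept direction and call there. Of 336 list counts 7 moved, among them cullin-RING, coactivator and proteasome counts without scaling factors. DMSO and PZH libraries of the same number shared almost no deviation from their group means (correlations 0.0007 to 0.011). That cannot show whether samples were handled in pairs, which the labels do not say. With the replicate block 5889 genes were higher and 6125 lower, with no call among the 10 changed. The GC trend with the block, the ratios with the GC trend removed, and leaving out the most abundant genes (5897 higher, 6134 lower), were chosen after seeing the data.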
